A study of Mus musculus with 3 samples.

Results

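The genes followed here are 10 rows of the deposited count matrices, each a ligand or receptor of the tumour necrosis factor (TNF) superfamily: the ligands Cd40lg, Tnfsf8, Tnfsf9, Ltb and Tnf and the receptors Cd40, Tnfrsf4, Tnfrsf9, Tnfrsf18 and Cd27. They were taken by gene symbol and make up 10 of the 32285 genes listed in each library, and all 10 were present with 1 row each. Single-cell RNA-seq had been made from live CD45+ cells sorted from whole mouse aortas with the adventitia, and each group had a single library. The Ctrl library was the control, from ApoE-/- mice on the C57BL/6J background. The library labelled HHcy came from mice of the same genotype and strain whose drinking water held 1.8 g/L homocysteine over 4 weeks, and the library labelled WD from such mice given a western diet for 4 weeks. By the labels, all 3 groups thus share the loss of Apoe, and the labels used here give neither the age nor the number of mice pooled in a library.

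The TNF superfamily consists of trimeric ligands, mostly held in the cell membrane, and of receptors that recruit TRAF adaptor proteins and activate NF-kappaB. Between a T cell and the cell that presents antigen to it, several of these pairs act as costimulation: Cd40lg on helper T cells engages Cd40 on B cells, macrophages and dendritic cells, while Tnfsf9 (4-1BB ligand), Tnfsf4 (OX40 ligand), Tnfsf18 (GITR ligand) and Cd70 on presenting cells engage Tnfrsf9, Tnfrsf4, Tnfrsf18 and Cd27 on T cells. Ltb, which joins Lta in the lymphotoxin heterotrimer read by Ltbr, shapes lymphoid tissue, and Tnf is the inflammatory cytokine read by Tnfrsf1a and Tnfrsf1b. The CD40 pair has long been studied in mouse atherosclerosis.

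The libraries held 7512 (Ctrl), 9753 (HHcy) and 8557 (WD) barcodes with median depths of 6664, 7066 and 7678 UMIs (unique molecular identifiers, the counted RNA molecules), and any pair of libraries shared between 20 and 24 barcodes. Apoe went against 1 label: it reached 374 CPM (the UMIs of a gene per 1000000 UMIs) in the library labelled HHcy against 16.3 in Ctrl and 19.3 in WD, so this library is called by its label and every direction drawn from it carries that doubt. Cell classes were named from marker genes after clustering without the 10 genes and without their pathway partners; each class name below stands for cells that are like that type. The comparisons used 2352, 3868 and 1323 B cells, 141, 211 and 150 T cells and 1939, 1202 and 2659 macrophages or monocytes in the order Ctrl, HHcy and WD. They also used 429, 262 and 364 conventional dendritic cells, which join cDC1, cDC2 and mature dendritic cells. All triplets of values below are in that order. With 1 library per group there was no replicate and no test between groups; the 95% intervals are exact for the UMI counts and cover counting error only.

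Among the members, 2 pairs lie close together on a chromosome, and their upstream sequences are shown because their levels over the cell classes are compared below. On chromosome 17 Ltb ends 3060 bases from Tnf with no gene between them, and Lta follows 1157 bases beyond Tnf. On chromosome 4 Tnfrsf4 and Tnfrsf18 lie 9551 bases apart with 2 annotated genes between them. The 250 bases before the start site (RefSeq, GRCm38.p6, 5′ to 3′ on the gene's strand) are given in lower case, with capitals marking a match on either strand to an NF-kappaB motif read as 3 G, any 2 bases, 3 T and 2 C.
Ltb, chr17:35194257-35194506, plus strand: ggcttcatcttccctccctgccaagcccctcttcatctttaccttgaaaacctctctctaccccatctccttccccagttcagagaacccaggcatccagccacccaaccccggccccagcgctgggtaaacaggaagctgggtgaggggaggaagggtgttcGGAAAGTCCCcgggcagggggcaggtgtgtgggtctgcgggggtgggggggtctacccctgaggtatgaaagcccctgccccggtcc
Tnf, chr17:35202008-35202257, minus strand: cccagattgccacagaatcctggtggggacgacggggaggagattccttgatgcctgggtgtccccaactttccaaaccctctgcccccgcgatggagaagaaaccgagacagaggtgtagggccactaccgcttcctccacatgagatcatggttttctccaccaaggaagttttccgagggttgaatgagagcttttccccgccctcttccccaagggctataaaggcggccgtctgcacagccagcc
Tnfrsf4, chr4:156013445-156013694, plus strand: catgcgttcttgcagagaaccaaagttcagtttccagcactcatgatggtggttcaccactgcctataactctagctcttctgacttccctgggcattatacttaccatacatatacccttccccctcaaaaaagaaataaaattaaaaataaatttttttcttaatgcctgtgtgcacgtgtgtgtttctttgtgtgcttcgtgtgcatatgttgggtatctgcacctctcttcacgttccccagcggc
Tnfrsf18, chr4:156026072-156026321, plus strand: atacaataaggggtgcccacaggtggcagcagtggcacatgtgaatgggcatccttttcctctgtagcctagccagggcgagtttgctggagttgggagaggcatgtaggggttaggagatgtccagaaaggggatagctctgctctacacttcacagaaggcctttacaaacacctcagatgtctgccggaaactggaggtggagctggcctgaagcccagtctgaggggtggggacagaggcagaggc

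The promoter table covered 7 of the 10 genes with 8 start sites and held none for Cd40, Cd40lg and Tnfsf9. Its windows run from 250 bases before to 50 bases after the start. The letters were found upstream of Ltb, beginning 87 bases before the start, and in 1 of the 2 windows of Tnfrsf9, beginning 43 bases before it. That is 2 of 8 windows, where 1.63% of 32851 mouse windows of 300 bases held the letters. Of the 32 windows of the NF-kappaB signal genes listed further on, 9 held them. A match is a description of the letters and not of a bound factor.

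The ligands divided over the cell classes as follows. Tnf was highest in macrophages and monocytes, at 988, 978 and 938 CPM, and in neutrophils, at 819, 690 and 787 CPM; the ranges of these classes did not overlap. Macrophages and monocytes held 82.7%, 75.9% and 87.6% of all Tnf UMIs of the classified and unnamed cells. In B cells Tnf was at 24.0, 22.6 and 33.4 CPM. With every cell thinned to 1000 UMIs, a Tnf UMI was left in 40.9%, 41.0% and 41.2% of macrophages and monocytes and in 2.83%, 1.62% and 3.14% of B cells.

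Ltb was highest in type 2 innate lymphoid cells (ILC2; 25, 34 and 37 cells), at 514, 641 and 591 CPM, then in T cells at 305, 356 and 372 CPM and in B cells at 244, 333 and 367 CPM, and the last 2 ranges overlapped. It was lower in neutrophils, at 106, 195 and 158 CPM, in cDC2, at 74.1, 126 and 90.2 CPM, and in macrophages and monocytes, at 20.1, 20.7 and 17.7 CPM. B cells held 80.4%, 84.1% and 69.6% of the Ltb UMIs. Tnf and Ltb, neighbours on chromosome 17, thus had different top classes: in macrophages and monocytes, the top class of Tnf, Ltb was lower than in every class just named.

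Tnfsf9, the ligand of 4-1BB, was highest in dendritic cells and in macrophages and monocytes. It was at 420, 402 and 242 CPM in cDC2, 237, 327 and 180 CPM in mature dendritic cells, 174, 145 and 163 CPM in macrophages and monocytes and 116, 98.8 and 104 CPM in cDC1. The cDC2 and mature dendritic ranges overlapped, whereas mature dendritic cells, macrophages and cDC1 kept this order in every library. T cells had 20.4, 8.75 and 10.2 CPM and B cells 6.33, 3.67 and 8.03 CPM.

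Cd40lg was found mainly in T cells, with 51, 39 and 20 UMIs in 18, 27 and 14 cells, or 65.0, 22.7 and 20.5 CPM. B cells, which should lack it, held 1 UMI per library among 2352, 3868 and 1323 cells, and neutrophils, NK cells and cDC1 held none. ILC2 held 5 UMIs in 2 control cells and none in the other libraries. Of all Cd40lg UMIs, T cells had 82.3%, 88.6% and 69.0%.

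Tnfsf8 (CD30 ligand) was found in T cells at 56.1, 77.5 and 53.2 CPM and in B cells at 23.7, 8.80 and 13.2 CPM, and the T cell values were higher in every library. ILC2 gave 286, 50.6 and 50.3 CPM, but 39 of the 40 control UMIs came from a single cell. Mature dendritic cells had no Tnfsf8 UMI in any library, in 78, 35 and 105 cells.

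**Figure D1:**
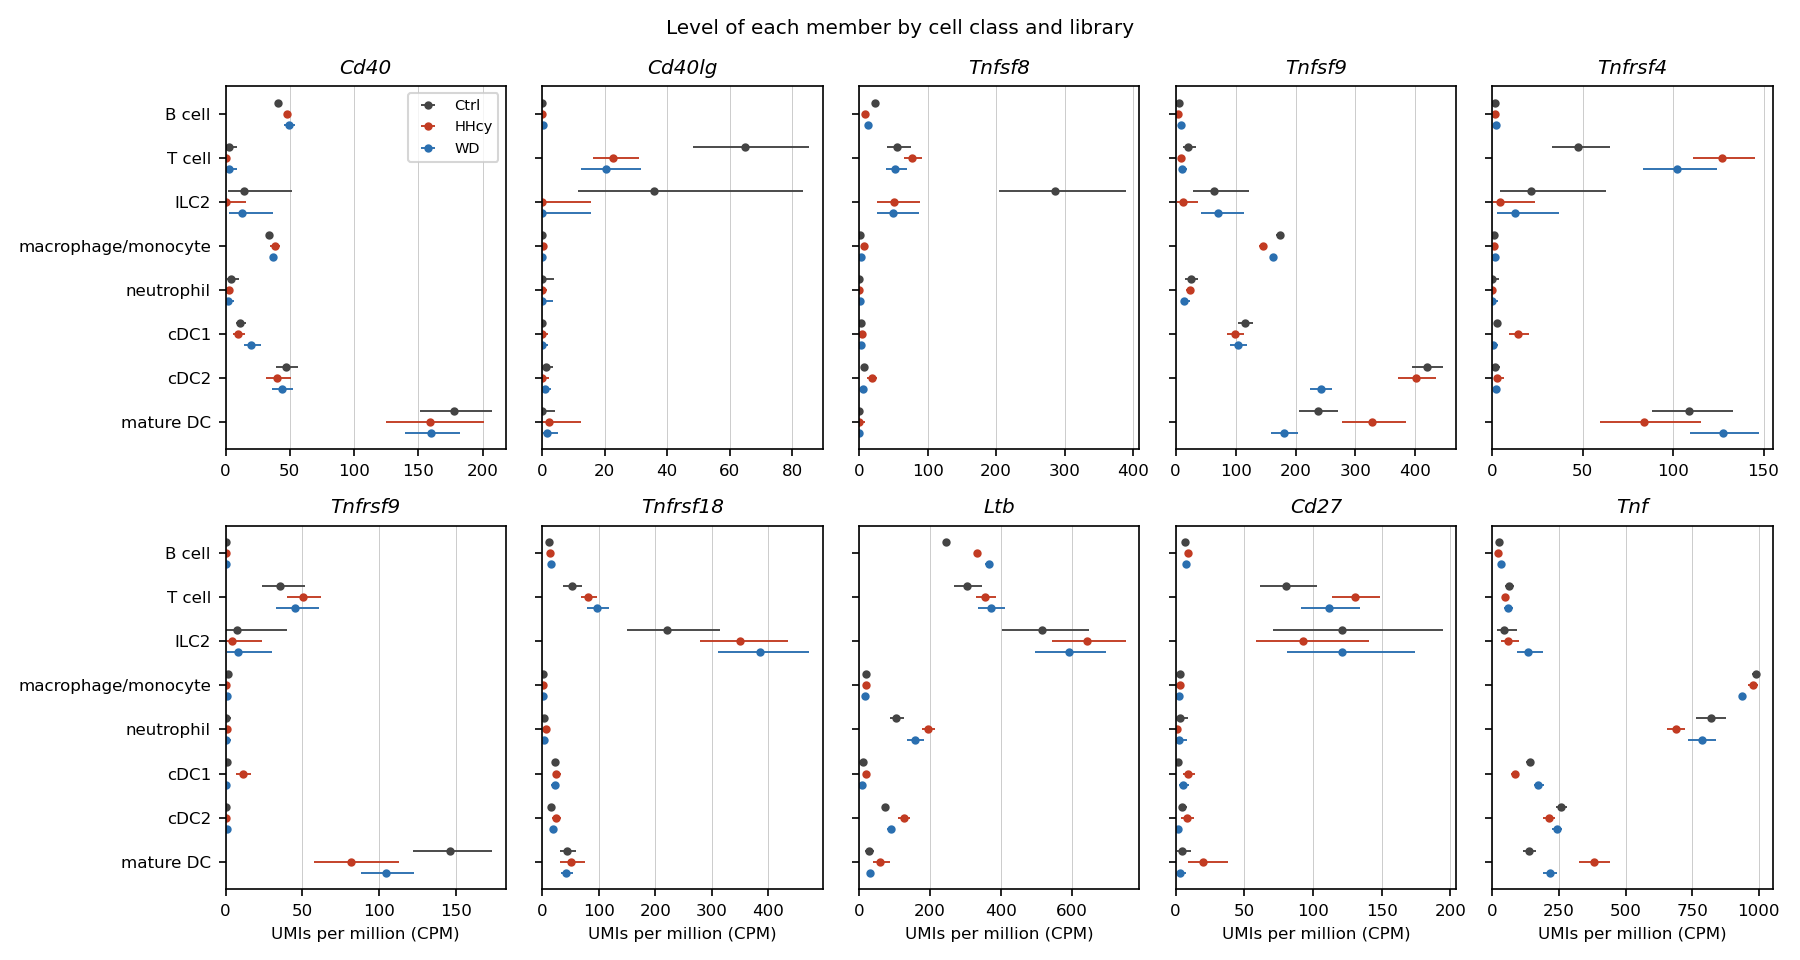
Level of the 10 genes in CPM of the class total (linear axes that differ between panels) in 8 cell classes, with 1 point per library (dark grey Ctrl, red HHcy, blue WD) and bars for the exact 95% Poisson interval. Tnf is highest in macrophages, monocytes and neutrophils, Ltb in lymphoid classes, Cd40 and Tnfrsf9 in mature dendritic cells, and Tnfrsf4 in mature dendritic cells and T cells.

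Among the receptors, Cd40 was highest in mature dendritic cells, the migratory form that carries Ccr7, at 178, 159 and 160 CPM. B cells followed at 40.9, 47.9 and 49.3 CPM, cDC2 at 47.2, 40.3 and 43.6 CPM and macrophages and monocytes at 34.1, 38.3 and 37.1 CPM. B cells and cDC2 overlapped, and each gave more than macrophages and monocytes in every library. T cells held 2, 1 and 3 Cd40 UMIs. Cd40 UMIs were seen in 65.4%, 68.6% and 66.7% of mature dendritic cells and in 2 of 141, 1 of 211 and 3 of 150 T cells, which should lack it.

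Of the receptors usually described on activated T cells, Tnfrsf4 and Tnfrsf9 also had high levels in mature dendritic cells. Tnfrsf4 (OX40) was at 109, 84.1 and 128 CPM there and at 47.1, 127 and 102 CPM in T cells, and the ranges overlapped. Tnfrsf9 (4-1BB) was at 146, 81.8 and 104 CPM in mature dendritic cells and at 35.7, 50.1 and 45.0 CPM in T cells, without overlap; NK cells gave 73.7, 165 and 398 CPM, from only 20, 12 and 13 cells. Tnfrsf18 (GITR) ran differently, with 221, 350 and 385 CPM in ILC2, 52.2, 81.6 and 97.2 CPM in T cells and 43.8, 50.9 and 42.8 CPM in mature dendritic cells. In mature dendritic cells, 32 of 78, 17 of 35 and 51 of 105 cells held a Tnfrsf4 UMI, where 27 of 2352, 42 of 3868 and 19 of 1323 B cells did. The summed CPM of 12 T cell markers in mature dendritic cells was 98.9, 301 and 91.2, against 5106, 6229 and 5085 in T cells, and its part in these levels was not tested.

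Cd27, the receptor of Cd70, was at 80.3, 131 and 112 CPM in T cells and at 121, 92.8 and 121 CPM in ILC2, and the ranges overlapped. B cells gave 6.62, 8.83 and 7.47 CPM and no class other than ILC2, T and NK cells exceeded 30 CPM in any library. The low share of B cells with a Cd27 UMI, 5.23%, 6.26% and 5.74%, stands beside 2.48%, 2.83% and 2.59% of macrophages and monocytes.

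When each ligand was set beside its receptor, the partner genes were unevenly found. Over the 3 libraries together, Cd70 was at 18.6 CPM in mature dendritic cells and below 1 CPM in the other 7 classes plotted. Tnfsf4 was at 28.0 CPM in mature dendritic cells and 10.2 CPM in cDC2, and below 3 CPM in those remaining. Mature dendritic cells therefore held transcripts of Cd40, Cd70, Tnfsf4 and Tnfsf9 together with Tnfrsf4 and Tnfrsf9. Tnfsf18 was under 1 CPM in all 8 classes, with 0 UMIs in T cells, ILC2, neutrophils and mature dendritic cells, while its receptor Tnfrsf18 was at 335 CPM in ILC2. Ltbr was at 43.8 CPM in macrophages and monocytes and 31.7 CPM in cDC2 but at 1.30 and 1.15 CPM in B and T cells, where Ltb was high. Tnfrsf8 (CD30) was at 11.7 CPM in B cells and below 4 CPM in the other 7. Tnfrsf1a and Tnfrsf1b, the receptors of Tnf, were highest in neutrophils, at 232 and 293 CPM, and in macrophages and monocytes, at 169 and 220 CPM.

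**Figure D2:**
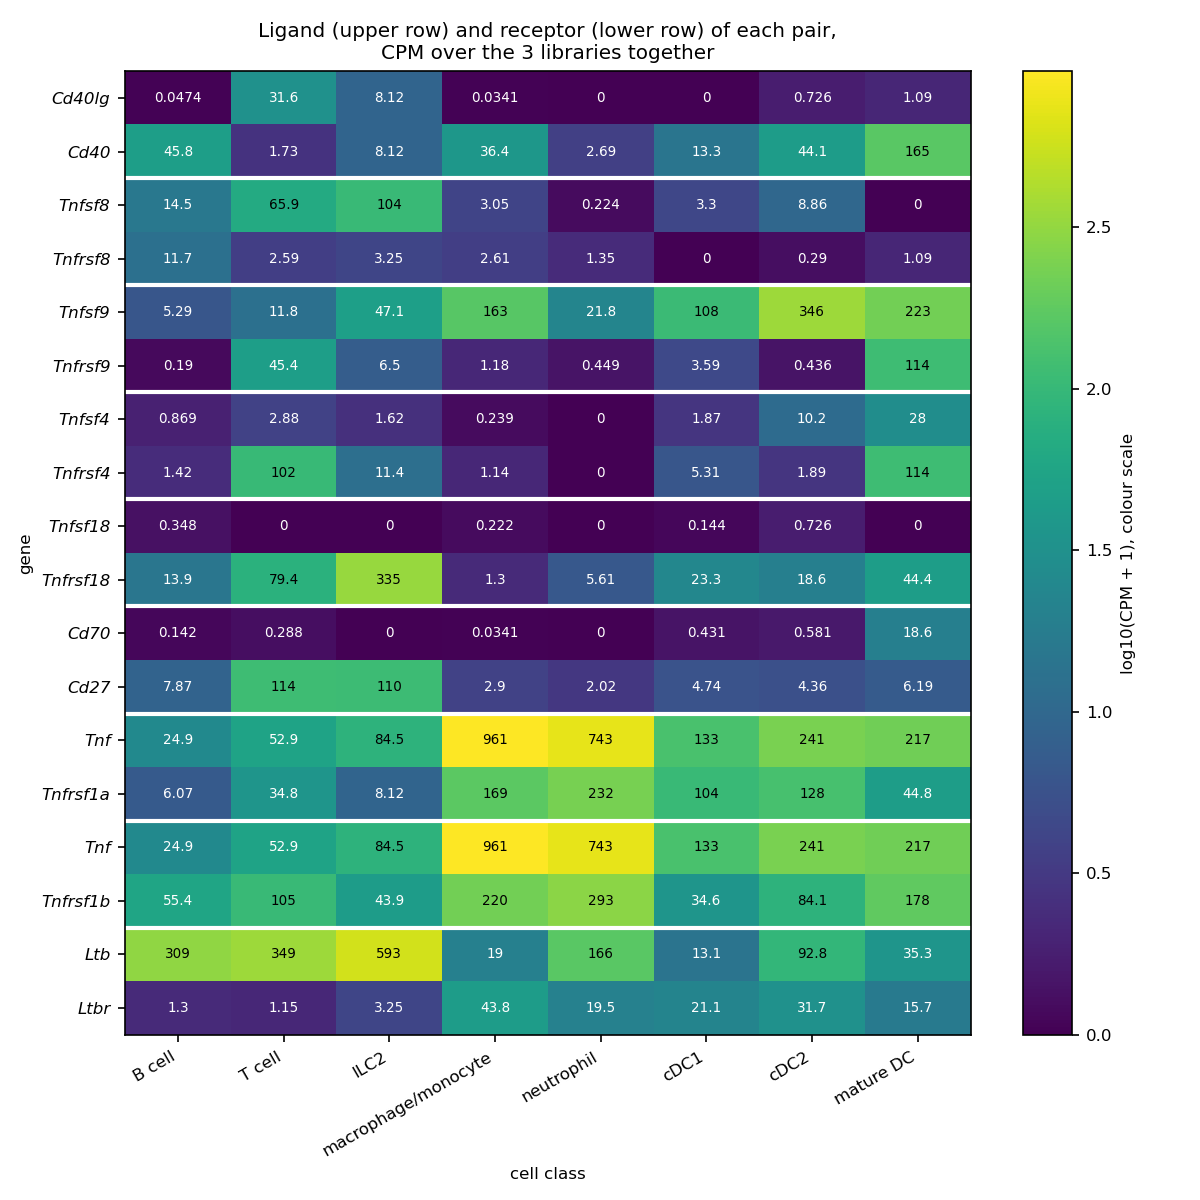
Level of each ligand (upper row of a pair) and its receptor (lower row) in 8 cell classes over the 3 libraries together, printed in CPM and coloured by log10(CPM + 1). Tnfsf18 is below 1 CPM in every class, Cd70 stands out in mature dendritic cells alone at 18.6 CPM, and Ltb and Ltbr are high in different classes.

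Some members were seen in the same mature dendritic cells. Over the 3 libraries, 71 of 100 cells with a Tnfrsf4 UMI also held Tnfrsf9, against 51 of 118 without Tnfrsf4, at median depths of 11769 and 10858 UMIs. Cells with a Cd40 UMI held Tnfsf9 in 81 of 145 cases and those without it in 21 of 73, but their median depths were 12472 and 9757 UMIs. These shares pool cells of 3 libraries and are given as a description.

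Comparison with the control library asked whether homocysteine or western diet went with another level of these genes inside a class. A member counted as higher or lower when the CPM ratio passed 1.5-fold (0.58 on the log2 scale), its 95% interval left out equality and the 2 libraries held at least 30 UMIs together. Over the 4 classes, 33 of 40 gene and class combinations could be judged for the library labelled HHcy, and 7 were higher and 5 lower. For WD, 34 of 40 could be judged, and 5 were higher and 2 lower. By class, the rule called 2.89% to 5.12% of all genes judged higher and 2.74% to 7.47% lower in HHcy. In WD it called 2.57% to 4.03% higher and 2.46% to 4.3% lower. Both comparisons share the control library.

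**Figure D3:**
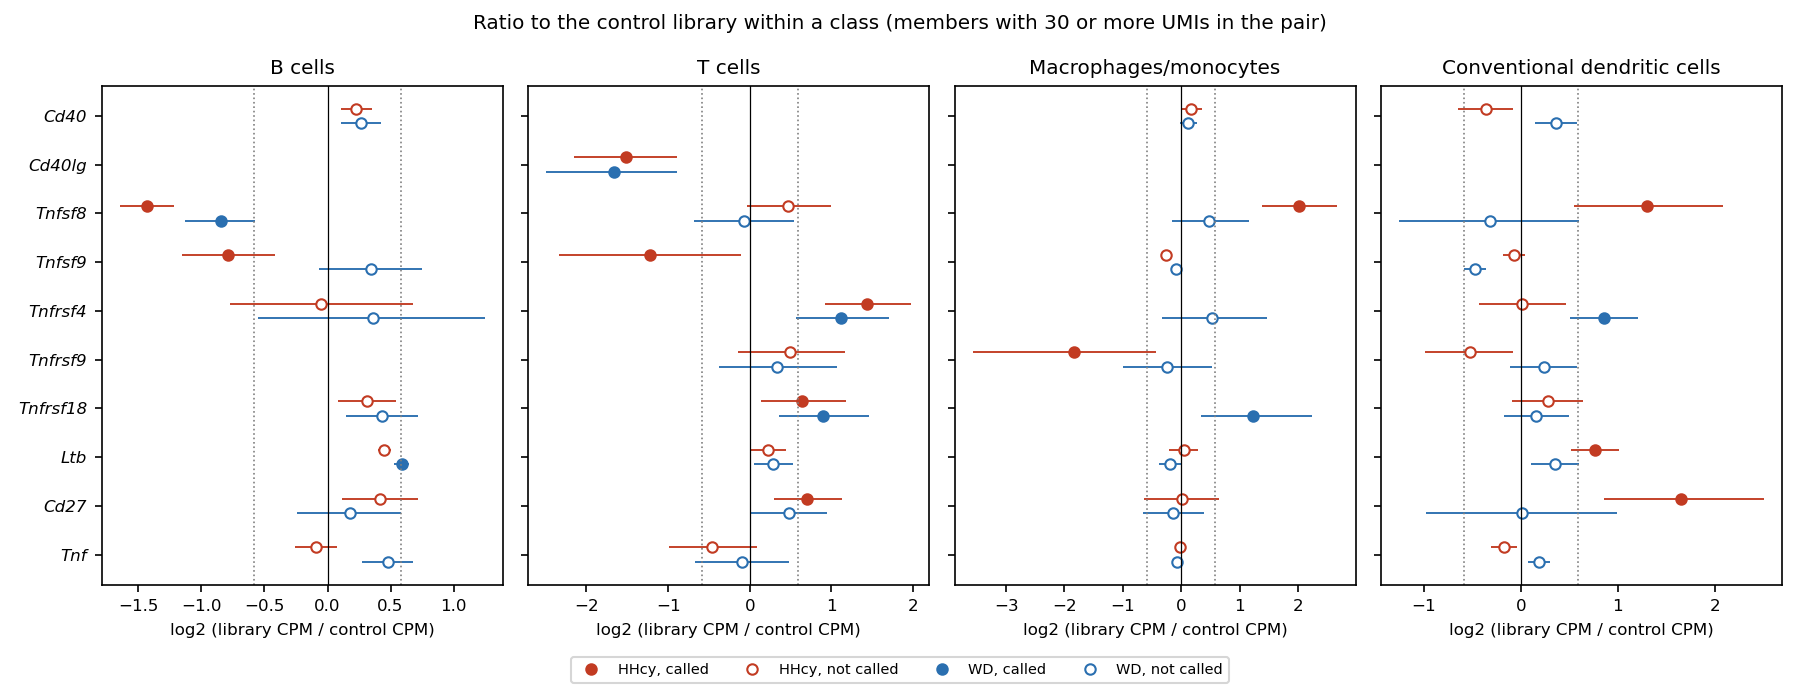
Log2 ratio of CPM to the control library (x axis) for members with 30 or more UMIs in the pair, in 4 cell classes; red is HHcy, blue is WD, bars are exact 95% intervals, dotted lines mark 1.5-fold and filled points passed the rule. Cd40lg is low and Tnfrsf4 and Tnfrsf18 are high in T cells of both libraries, and Tnfsf8 is low in B cells of both.

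In B cells, 2 of the 8 members judged were lower in the library labelled HHcy and none higher, where the same rule called 7.47% of 11975 genes lower and 3.67% higher. In WD, 1 of 8 was higher and 1 lower, where 2.57% and 2.46% of 11337 genes were. The median log2 ratio of the members was 0.09 (HHcy) and 0.35 (WD), against -0.04 and 0.01 over all genes judged. Cd40 itself, at 860, 1513 and 528 UMIs, had log2 ratios of 0.23 (0.11 to 0.35) and 0.27 (0.11 to 0.43) and so stayed inside 1.5-fold, as did Tnf, Cd27, Tnfrsf4 and Tnfrsf18.

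Tnfsf8 gave the largest B cell difference. Its 498, 278 and 141 UMIs lay in 153, 81 and 48 cells and gave log2 ratios to control of -1.43 (-1.65 to -1.21) in HHcy and -0.85 (-1.13 to -0.58) in WD. Nearly all of it lay in the B1-like sub-cluster, innate-like B cells that make natural antibody: 36.2, 26.9 and 23.6 CPM there against 0.476, 0.671 and 0.367 CPM in follicular-like cells. Of the 498 control UMIs, 472 were in B1-like cells. Tnfrsf8, the receptor of Tnfsf8, had the same location, at 28.8, 17.1 and 25.8 CPM in B1-like cells and 24.2 CPM over all of them against 0.462 and 0.267 CPM in the 2 follicular-like clusters.

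B1-like cells were 1175 of 2352, 798 of 3868 and 524 of 1323 B cells, and follicular-like cells were 718, 2657 and 484 of them. With the sub-clusters weighted alike in both libraries, the log2 ratio of Tnfsf8 in HHcy was -0.49 and no longer passed the rule. Inside B1-like cells, the ratios were -0.43 (-0.65 to -0.21) in HHcy, short of 1.5-fold, and -0.62 (-0.90 to -0.34) in WD, past it, where 1.71% of genes were called lower. Tnfrsf8 in B1-like cells was lower in HHcy, at -0.75 (-1.03 to -0.49), and at -0.16 (-0.44 to 0.12) in WD. Within B1-like cells, a Tnfrsf8 UMI was seen in 85 of the 259 cells with Tnfsf8 and in 419 of the 2238 cells without it, at median depths of 12929 and 10537 UMIs.

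Ltb in B cells was at 244, 333 and 367 CPM, with log2 ratios of 0.45 (0.40 to 0.50) and 0.59 (0.53 to 0.65), so that only WD passed, at the edge of the rule. By sub-cluster the libraries differed in another way. In B1-like cells Ltb was at 196, 294 and 292 CPM, a log2 ratio of 0.58 for both libraries. In follicular-like cells it was at 333, 341 and 435 CPM, with ratios of 0.03 (-0.05 to 0.12) and 0.38 (0.27 to 0.50). Immature-like cells had 453, 503 and 614 CPM. With the sub-clusters weighted alike, the WD ratio over all B cells was 0.47 and no longer passed.

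Cd40 varied more between B cell sub-clusters than between libraries. It was at 98.3, 101 and 146 CPM in immature-like cells, 51.7, 54.0 and 46.7 CPM in follicular-like cells and 32.0, 33.6 and 33.1 CPM in B1-like cells, and this order held in every library. The largest library ratio among these was 0.57 (0.26 to 0.88) for WD in immature-like cells, just short of 1.5-fold.

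**Figure D4:**
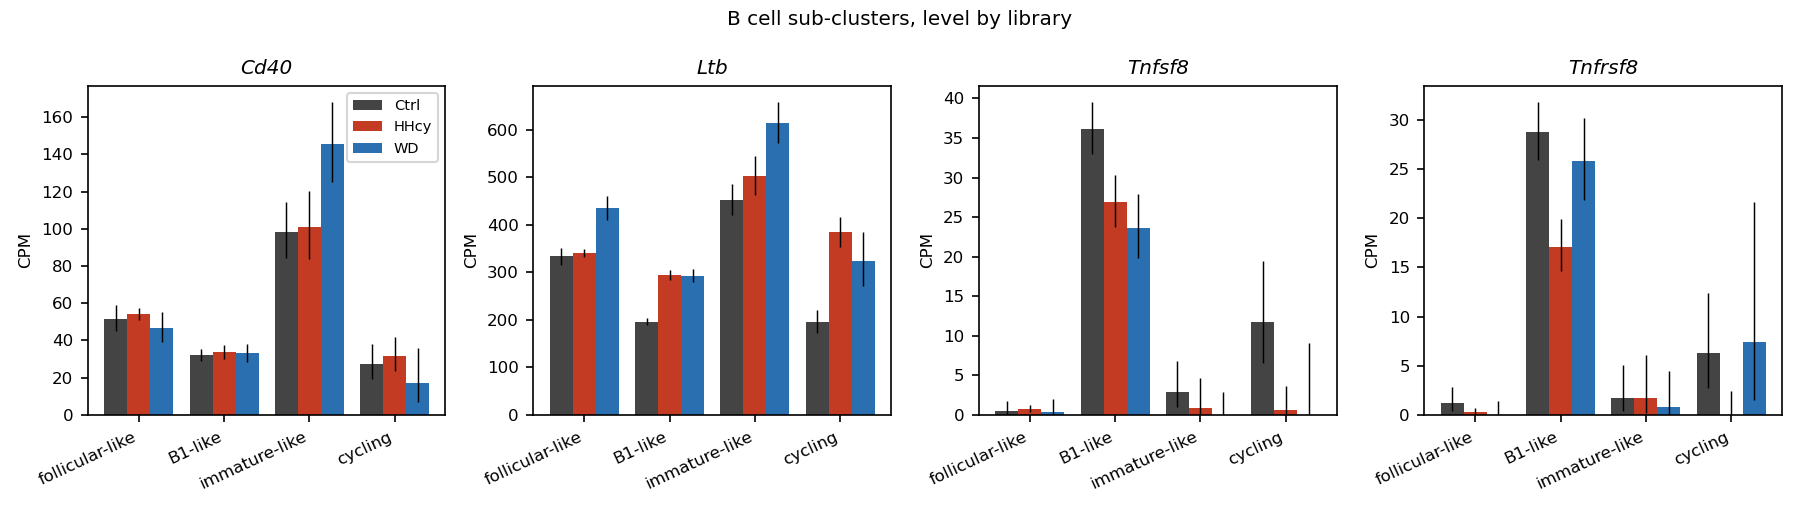
CPM of Cd40, Ltb, Tnfsf8 and its receptor Tnfrsf8 in 4 B cell sub-clusters, with bars by library (dark grey Ctrl, red HHcy, blue WD) and exact 95% Poisson intervals. Tnfsf8 and Tnfrsf8 are near 0 in follicular-like and immature-like cells and between 17.1 and 36.2 CPM in B1-like cells, whereas Cd40 and Ltb peak in immature-like cells.

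Tnfsf9 in B cells, at 133, 116 and 86 UMIs or 6.33, 3.67 and 8.03 CPM, was lower in HHcy, at -0.79 (-1.16 to -0.42), and not called in WD. This call changed sign, to 0.13, when doublets were kept, and without cycling cells or with thinning it did not pass. A cluster of 228 B cells left without a sub-cluster name had 195 CPM of Tnf, against 15.4 to 29.2 CPM in the other B cell clusters. Its summed macrophage marker level was 2309 CPM, against 330 to 1281 CPM in those clusters, and the part of this in its Tnf level was not tested.

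In T cells, 3 of the 9 members judged were higher and 2 lower in the library labelled HHcy, where the rule called 3.37% of 7425 genes higher and 6.48% lower. In WD, 2 of 8 were higher and 1 lower, where 3.82% and 3.94% of 6523 genes were. The median log2 ratio of the members was 0.47 and 0.31, against -0.05 and 0.02 over all genes judged. These sums rest on 141, 211 and 150 cells, and for several genes on few of them.

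Cd40lg, which gives T cell help, was lower in both libraries, at -1.52 (-2.16 to -0.89) in HHcy and -1.67 (-2.49 to -0.90) in WD. The control excess was in few cells: 39 of its 51 UMIs came from 8 of the 14 cells of the γδ or IL-17 T-like sub-cluster, 13 of them from 1 cell. That sub-cluster had 5 UMIs in 22 cells of HHcy and 5 in 22 cells of WD, or 430, 38.0 and 39.7 CPM. In the CD4 helper or regulatory T-like sub-cluster the values were 65.4, 82.7 and 28.7 CPM, from 6, 16 and 4 UMIs. The shares of all T cells with a Cd40lg UMI were 12.8%, 12.8% and 9.33%, and in cells thinned to 1000 UMIs they were 5.97%, 1.44% and 1.34%. With separate clustering of the libraries, the log2 ratios were 0.0737 and -0.0415, and neither passed.

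Which cells of the γδ or IL-17 T-like sub-cluster held Cd40lg could be described with the T cell receptor genes. Of its 14 cells with a Cd40lg UMI, over the 3 libraries, 1 held Trdc, the constant region of the δ chain, and 10 held Trac, that of the α chain. Of its 44 cells without Cd40lg, 37 held Trdc and 16 held Trac. The median depths were 8110 and 5279 UMIs. The Trac difference lay in Ctrl, with 8 of 8 cells with Cd40lg and 3 of 6 without it. In HHcy it was 1 of 3 against 7 of 19, and in WD 1 of 3 against 6 of 19. Il17a was seen in 5 of the 14 cells and in 22 of the 44.

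Tnfrsf4 was the receptor with the largest T cell ratios. Its 37, 218 and 100 UMIs gave log2 ratios of 1.43 (0.92 to 1.97) and 1.12 (0.56 to 1.70), yet the cells with a Tnfrsf4 UMI were 15 of 141, 30 of 211 and 19 of 150, or 10.6%, 14.2% and 12.7%. The shares of positive cells thus differed less than the CPM, and single cells held up to 6, 35 and 19 UMIs. In the CD4 helper or regulatory T-like sub-cluster, 22, 31 and 30 cells, it was at 294, 729 and 503 CPM, with log2 ratios of 1.31 (0.71 to 1.96) and 0.77 (0.11 to 1.47). It had no UMI in the γδ or IL-17 T-like sub-cluster of any library and 1, 0 and 0 UMIs in CD8 T-like cells. In cycling T cells it was at 27.6, 107 and 79.6 CPM. The HHcy ratio was 0.66 when doublets were kept and 0.84 with separate clustering of the libraries, past the rule in both, and thinning, at 0.52 and 0.26, ended both calls.

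Tnfrsf18 followed at 52.2, 81.6 and 97.2 CPM, with log2 ratios of 0.64 (0.13 to 1.18) and 0.90 (0.35 to 1.46). Here the share of positive cells differed as well: 24 of 141, 68 of 211 and 42 of 150 T cells, or 17.0%, 32.2% and 28.0%, held a UMI. The median depths of the T cells ran in the same order, at 4018, 6023 and 4854 UMIs. In the CD4 helper or regulatory T-like sub-cluster the values were 207, 315 and 381 CPM. Both calls were lost when doublets were kept, at 0.22 and 0.47, and with thinning. The HHcy call was also lost without cycling cells, at 0.54, with stricter doublet limits, at 0.31, and with separate clustering of the libraries, at 0.34. ILC2 gave the same direction, at 0.66 (0.05 to 1.31) and 0.80 (0.20 to 1.44), from 25, 34 and 37 cells.

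Cd27, which sustains T cell survival, was higher in HHcy, at 0.70 (0.29 to 1.13), and in WD it was 0.47 (0.01 to 0.95), short of 1.5-fold. It spread over naive, CD8 and CD4 T-like cells and was nearly missing from γδ or IL-17 T-like cells, with 4, 0 and 0 UMIs. In HHcy the call was lost without cycling cells, at 0.45, in the mean over cells, at 0.35, with separate clustering, at 0.43, and with thinning. Naive T-like cells were 15.6% of the T cells in Ctrl and 27.5% in HHcy, and CD8 T-like cells 41.1% and 26.5%. With the sub-clusters weighted alike the Cd27 ratio was 0.61, a value for which no interval of its own was computed. Tnfrsf9 and Ltb were not called, with log2 ratios of 0.49 and 0.34 for Tnfrsf9 and 0.23 and 0.29 for Ltb. Tnfsf9 was lower in HHcy, at -1.22 (-2.34 to -0.11), on 15 against 16 UMIs, and leaving out the cell with the most UMIs in each library ended that call.

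Of the 5 T cell sub-clusters, the CD4 helper or regulatory T-like one had the highest CPM of Tnfrsf4, Tnfrsf18, Tnfrsf9, Cd27 and Tnfsf8 in every library. Over the 3 libraries it had 561 CPM of Tnfrsf4, 313 of Tnfrsf18, 156 of Tnfrsf9, 205 of Cd27 and 325 of Tnfsf8. Cells with Foxp3, the factor of regulatory T cells, held Tnfrsf4 in 18 of 22 cases and Tnfrsf9 in 9 of 22; cells without Foxp3 held them in 28 and 7 of 61. Tnfsf8 was divided the other way, in 1 of 22 cells with Foxp3 and in 27 of 61 without it, and so was Cd40lg, in 2 of 22 and 16 of 61. The median depths were 5374 UMIs with Foxp3 and 4289 without. Within this sub-cluster the neighbours Tnfrsf4 and Tnfrsf18 were seen together in 37 of the 46 cells with Tnfrsf4, and Tnfrsf18 was in 11 of the 37 cells without it. The median depths of these cells were 5726 UMIs with Tnfrsf4 and 3486 without.

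**Figure D5:**
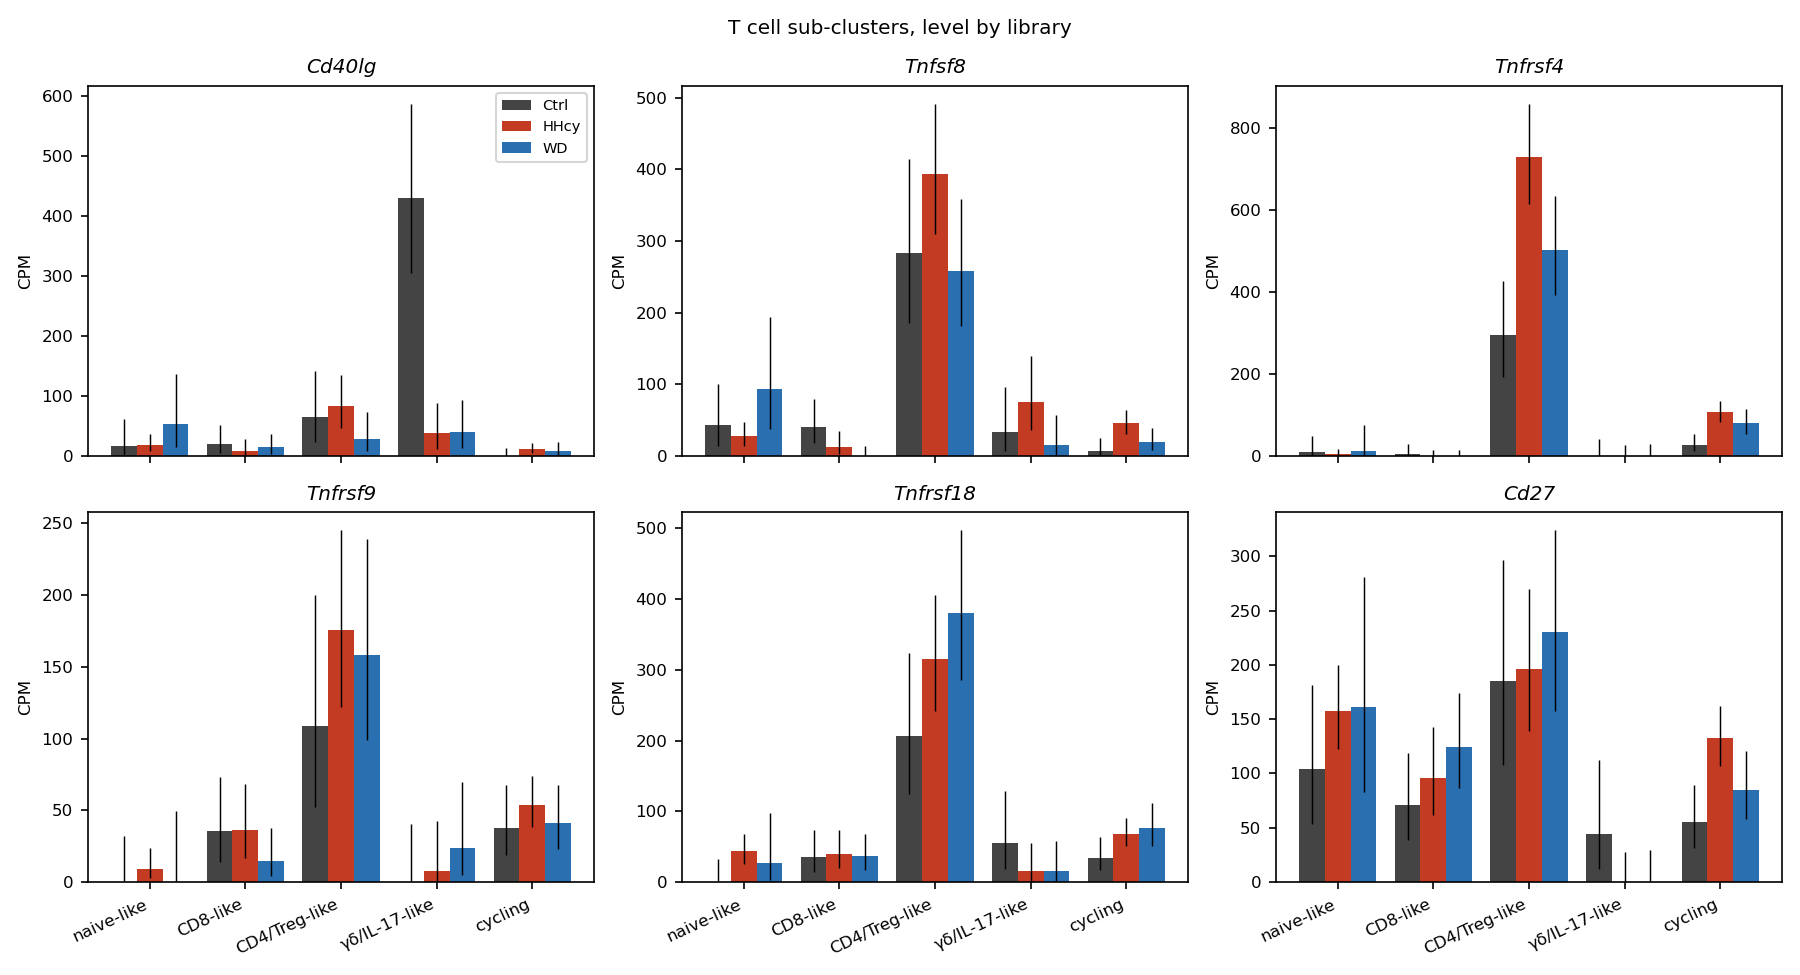
CPM of Cd40lg, Tnfsf8, Tnfrsf4, Tnfrsf9, Tnfrsf18 and Cd27 in 5 T cell sub-clusters, with bars by library (dark grey Ctrl, red HHcy, blue WD) and exact 95% Poisson intervals. Tnfrsf4, Tnfrsf9, Tnfrsf18 and Tnfsf8 peak in the CD4 helper or regulatory T-like cells, and the control Cd40lg bar of 430 CPM rests on 39 UMIs of 8 cells.

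In macrophages and monocytes, 1 of the 7 members judged was higher and 1 lower in the library labelled HHcy, where 2.89% of 11781 genes were higher and 3.34% lower. In WD, 1 of 9 was higher and none lower, where 4.03% and 3.62% of 12470 genes were. The abundant members were close to the control. Tnf, with 16974, 11509 and 27862 UMIs, had log2 ratios of -0.02 (-0.05 to 0.02) and -0.08 (-0.10 to -0.05). Tnfsf9 had -0.26 (-0.34 to -0.17) and -0.09 (-0.16 to -0.03), and Cd40 had 0.17 (-0.01 to 0.35) and 0.12 (-0.02 to 0.27).

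The 3 calls in this class concerned genes below 7 CPM. Tnfsf8 was higher in HHcy, at 2.01 (1.38 to 2.68), on 80 UMIs against 29, and 51 of the 80 were in 1 cell; without the top cell of each library the ratio was 1.01. Its highest cluster, 44 cells left unnamed, had 213 CPM. Tnfrsf9 was lower in HHcy on 5 against 26 UMIs, 16 of them in 1 cell, and was not called once that cell was left out. Tnfrsf18 was higher in WD on 53 against 13 UMIs, at 1.24 (0.34 to 2.24), and changed sign under stricter doublet limits, to -0.13.

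Inside the class Tnf and Ltb separated the sub-clusters. Tnf was at 647, 497 and 538 CPM in resident-like macrophages, 1063, 1317 and 1117 CPM in non-classical monocyte-like cells and 1139, 1352 and 1011 CPM in foamy macrophage-like cells. A cluster of 64 cells with markers of both classical monocytes and foamy macrophages had 3591 CPM. Ltb was at 50.3, 56.0 and 66.4 CPM in non-classical monocyte-like cells and between 3.79 and 12.2 CPM in classical monocyte, resident and foamy macrophage-like cells. Tnfsf9 was at 265 CPM in the largest foamy macrophage-like cluster, 178 CPM in classical monocyte-like cells and 83.8 CPM in resident-like cells.

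In conventional dendritic cells, 3 of the 9 members judged were higher and none lower in the library labelled HHcy, where 5.12% of 10045 genes were higher and 2.74% lower. In WD, 1 of 9 was higher and none lower, where 3.97% and 4.3% of 10221 genes were. The members higher in HHcy were Ltb, at 0.77 (0.51 to 1.02), Tnfsf8, at 1.30 (0.54 to 2.08), and Cd27, at 1.66 (0.85 to 2.51). Tnfsf8 had 40 against 25 UMIs, 19 of them in 1 cell, and was not called without the top cell of each library; under stricter doublet limits its ratio was -0.05. Summed T cell markers in this library were 98.8 CPM in cDC1, against 12.2 and 9.19 in Ctrl and WD, and 301 CPM in mature dendritic cells, against 98.9 and 91.2; their part in these 3 calls was not tested.

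By subset, Ltb in cDC2 was at 74.1, 126 and 90.2 CPM, and T cell markers there summed to 70.2, 90.9 and 20.1 CPM. Tnfrsf4 was the call in WD, at 0.86 (0.51 to 1.21). Mature dendritic cells were 18.2%, 13.4% and 28.8% of the class, and with the subsets weighted alike the ratio was 0.18. Inside mature dendritic cells the WD ratio of Tnfrsf4 was 0.23 (-0.14 to 0.60).

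Tnfsf9 in cDC2 had 1076, 658 and 650 UMIs and was lower in WD, at -0.79 (-0.94 to -0.65), but not in HHcy; a UMI was seen in 72.5%, 62.6% and 63.8% of the cells. Tnf in mature dendritic cells was at 138, 380 and 215 CPM, higher in both, at 1.46 (1.12 to 1.81) and 0.64 (0.33 to 0.95). The 172 HHcy UMIs lay in 17 of 35 cells and 64 were in 1 cell. Summed neutrophil markers in these cells were 1875, 12503 and 1687 CPM, and neutrophils have 690 to 819 CPM of Tnf; the part of this was not tested. The shares of mature dendritic cells with a Tnf UMI were 41.0%, 48.6% and 46.7%.

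Between the libraries labelled HHcy and WD, B cells had 1 of 8 members lower in HHcy, Tnfsf9 at -1.13 (-1.54 to -0.71), and none higher, where 6.48% of genes were lower and 2.3% higher. In T cells none of 8 members was called, where 5.48% of genes were lower and 2.63% higher, and Tnfrsf4 differed by 0.31 (-0.04 to 0.67). In macrophages and monocytes Tnfsf8 was higher and Tnfrsf9 and Tnfrsf18 were lower of 9 judged, where 3.79% of genes were higher and 5.04% lower. In conventional dendritic cells Tnfsf8 and Cd27 were higher and Cd40, Tnfrsf4 and Tnfrsf9 lower of 9 judged, where 6.49% of genes were higher and 4.11% lower. With the dendritic subsets weighted alike, the ratios of the last 3 were -0.16, -0.11 and 0.0376 and none passed.

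Around the 10 genes, 2 lists of the pathway were followed, the first of 20 further ligands and receptors of the superfamily. In B cells of HHcy 2 of its 13 genes judged were lower, Tnfrsf8 at -1.75 (-2.02 to -1.49) and Tnfsf12 at -0.73, and none was higher; in WD 1 was higher, Tnfrsf10b at 0.64. In T cells Tnfsf11 (RANKL) was lower in both, at -1.39 (-2.03 to -0.76) and -1.73 (-2.60 to -0.92), on 48, 40 and 18 UMIs, and Fas, the death receptor, was higher in HHcy at 1.09 (0.03 to 2.32); 9 and 8 of the list could be judged. In macrophages and monocytes 1 of 13 was higher in HHcy, Tnfsf14 at 0.77, and none was called in WD. In conventional dendritic cells 1 of 10 was lower in HHcy, Tnfsf4 on 25 against 77 UMIs, with a log2 interval of -1.71 to -0.33. In WD Tnfsf12 and Fas were higher there, at 1.06 and 0.69, and Tnfsf14 was lower, at 5.62 against 11.3 CPM. Over all genes judged, the rule called 2.57% to 5.12% higher and 2.46% to 7.47% lower in the 8 class comparisons with the control library. The list's median log2 ratio lay between -0.55 and 0.21 over these comparisons, where that of all genes judged lay between -0.05 and 0.06.

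The second list held 26 genes of the signal, TRAF adaptors, NF-kappaB subunits and NF-kappaB targets. At most 2 of them were called in any class comparison with the control library. Over all genes judged, these comparisons called 2.57% to 5.12% higher and 2.46% to 7.47% lower. Bcl2a1b, an anti-apoptotic gene with near-identical copies, was higher in B cells of HHcy at 0.77 (0.70 to 0.84), and Icam1, an adhesion receptor, was lower there at -0.66 (-0.78 to -0.54). Relb was higher in T cells of WD at 0.89 (0.16 to 1.66). Traf1, an adaptor induced by NF-kappaB, was lower in macrophages and monocytes of WD, at 227 against 359 CPM or -0.66 (-0.71 to -0.61), and so was Traf4 at -0.99 (-1.64 to -0.35). Foamy macrophage-like cells were 17.4% of the class in Ctrl and 34.0% in WD, and non-classical monocyte-like cells 34.1% and 19.7%; their part in these 2 ratios was not tested. Against the control library, no gene of this list was called in T cells or macrophages of HHcy, or in conventional dendritic cells of either library, and its median log2 ratio lay between -0.22 and 0.05.

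The genes whose levels were most like those of each member were ranked by Pearson's r of log2(CPM + 1) over 32 units, each a class of at least 20 cells in 1 library, among 10858 genes; units of 1 library share its depth. Tnf was closest to Lst1 (r = 0.95), Ccrl2 and Lilr4b, and Cd40lg to Il17a (0.948), Cd3e and Crmp1. Cd27 was closest to Pglyrp2 (0.938), Skap1 and Zap70, and Ltb to Vps37b (0.913), Fam107b and Cd69. Cd40 was closest to Cd83 (0.896), H2-Aa and Dnase1l3, and Tnfsf9 to Ccnd1 (0.870), Cttnbp2nl and Grk3. Tnfsf8 was closest to Shisa5 (0.861), Flt3l and Naa30, and Tnfrsf18 to Dkkl1 (0.828), Xlr4b and P2ry10. Tnfrsf4 and Tnfrsf9 ranked among each other's nearest genes, at r = 0.851, the only pair of members that did, and Tcf7 was among the nearest 3 of both.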

How the data were processed

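The authors deposited, for each of the 3 libraries, a gene by barcode matrix of UMI counts (10x 3′ v3 chemistry). Per the file headers it was written by Cell Ranger 4.0.0, whereas the submitters' processing notes name Cell Ranger 2.2.0 and the build mm10; whether strand was used is not given in the sources used here. Matrices were summed with scipy 1.17.1 and clustered by the Leiden method (leidenalg 0.10.2, Python 3.11.15). Barcodes with 200 or more genes and at most 10% mitochondrial UMIs were kept. Single barcodes with marker genes of 2 or more lineages were left out as doublets, 615 of 6038 (Ctrl), 1705 of 8155 (HHcy) and 1374 of 6710 (WD). Some clusters with markers of several classes were kept as unnamed cells. The 10 genes, the pathway lists and Apoe were kept out of the clustering, and classes were named from marker lists. CPM is the summed UMIs of a gene per 1000000 UMIs of the class; intervals are exact Poisson, Clopper-Pearson or conditional binomial at 95%, cover counting error only, and treat UMIs as independent, although many UMIs of a gene can come from 1 cell.

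The whole table was judged by 1 rule per class. It was tried on simulated B and T cell sums whose UMIs were independent. That simulation does not cover UMIs clumped in single cells. The rule for named genes took all 10 members, the called list genes (at most 4 per direction, list and comparison), direct partners and the 3 most like genes. The members and lists were chosen with earlier results of these data known. Alternatives covered doublets, mitochondrial limits, clustering, scaling, thinning, per-cell means, sub-cluster mix, UMI minimum and cells left out; 3 of them and a looser promoter motif were added after seeing the data, and so were the breakdowns of single sub-clusters and of cells by a second gene. For per-cell means and equal sub-cluster mix, no exact interval was computed, and the width of the main interval was kept around the new ratio. Gene positions are from GENCODE vM21 and promoters from RefSeq. Tnfrsf9, Tnfrsf18, Cd27 and Tnfsf9 overlap genes on the other strand, Camta1, Gm16008, Vamp1 and Gm11110.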

Additional observations from a re-analysis of the deposited data

How the results depend on the processing

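With 1 library per group, no library could be left out. No paired analysis was possible because each group had 1 library. The number of members called over the 4 classes was 7 higher and 5 lower in HHcy and 5 higher and 2 lower in WD. The shares of all genes called under the main setting are given with each class above. Thinning each cell to 1000 UMIs, which also left fewer UMIs to reach the minimum of 30, gave 1 and 3 (HHcy) and 3 and 0 (WD). The cause of these lower counts was not tested. Clustering each library on its own gave 4 higher in HHcy, the same sub-cluster mix gave 3 lower in HHcy and 3 higher in WD, and mitochondrial UMIs up to 20% gave 3 higher in WD. The other settings stayed within 1.5 times of these counts.

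Among ratios to the control library, called values changed sign in 7 cases: Tnfsf9 in B cells of HHcy with doublets kept (0.13), Cd40lg in T cells of HHcy with each library clustered on its own (0.0737), Tnfrsf18 in macrophages and monocytes of WD with stricter doublet limits (-0.13) and with thinning (-0.0514), Tnfsf8 in conventional dendritic cells of HHcy with stricter doublet limits (-0.0485), and, with thinning, Cd27 in T cells (-0.0494) and Tnfrsf9 in macrophages and monocytes of HHcy (1.27). The last value was set by a floor, because a side with 0 UMIs entered a ratio as 3 UMIs. After thinning, 0 HHcy and 2 Ctrl cells of that class held a Tnfrsf9 UMI, so these counts kept their direction. The cause of the other changes was not tested. Of 938 member ratios to the control library recomputed, 831 stayed inside their own interval and 100 moved outside it without a change of sign among the called ones. The 831 include values that could not move. A minimum of 10 UMIs leaves each ratio unchanged. Leaving out unnamed or cycling sub-clusters removes no conventional dendritic cell, because dendritic classes were given no sub-cluster names. A cDC1 cluster of 38, 25 and 33 cells, with Mki67 and Top2a among its top 10 genes, therefore stayed in.

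Of the members called between HHcy and WD, Tnfsf9 in B cells changed sign with doublets kept (0.0387), Tnfrsf9 in conventional dendritic cells with the same sub-cluster mix (0.0376), and Tnfrsf9 (2.74) and Tnfrsf18 (0.74) in macrophages and monocytes and Cd27 in conventional dendritic cells (-0.10) with thinning. The values of 2.74 for Tnfrsf9 and -0.10 for Cd27 were set by the floor of 3 UMIs. After thinning, 0 HHcy and 1 WD macrophages or monocytes held a Tnfrsf9 UMI. For Cd27, 2 HHcy and 0 WD conventional dendritic cells did, so both sets of counts kept their direction. In macrophages and monocytes, the sign of Tnfrsf18 held under 12 of 14 settings, and the calls of Tnfrsf9 and Tnfrsf18 under 6 and 5. A looser NF-kappaB consensus, searched upstream only and chosen after seeing the data, was in 2 of 8 member windows and in 5.00% of all 32851 windows, where the letters reported were in 2 of 8 and in 1.63%.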
